A study of Homo sapiens with 12 samples.

Results

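The 10 genes described here encode proteins of Wnt signalling: the ligands WNT5A, WNT7A, WNT7B and WNT10A, the R-spondin receptors LGR4 and LGR5, the secreted inhibitor DKK1, the scaffold AXIN2, the transcriptional effector CTNNB1, which encodes beta-catenin, and its DNA-binding partner TCF7L2. They were taken by gene symbol from a table of 57905 genes, in which all 10 symbols were found. RNA was measured by sequencing of polyadenylated RNA in 3 established human lung adenocarcinoma lines with mutant EGFR, PC9, HCC827 and HCC4006. Each line has 2 libraries of dormant cells, kept for 2 weeks in 100 nM osimertinib, an EGFR inhibitor, together with 30 nM trametinib, a MEK inhibitor. Each also has 2 libraries of control cells, harvested after 24 hours in the solvent DMSO, which makes 12 libraries in 6 groups. All 6 groups carry the mutant EGFR of their line. Dormant cells were grown in 15 cm dishes and DMSO cells in 10 cm dishes, so drug, duration and dish cannot be told apart. The plates of a group were set up in duplicate, and nothing says that they came from separate cultures, so the p-values measure only the spread between these samples.

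In canonical Wnt signalling, secreted Wnt proteins bind Frizzled and LRP receptors at the cell surface, which halts the destruction complex built on AXIN and APC. Beta-catenin then accumulates and, with TCF/LEF factors such as TCF7L2, switches on target genes, of which AXIN2 and LGR5 are standard examples. R-spondins, acting through LGR4 and LGR5, keep Frizzled receptors on the surface, whereas DKK1 blocks LRP receptors from outside the cell. WNT5A is best known for signalling that does not pass through beta-catenin. In the lung, Wnt signals are known for maintaining alveolar stem cells.

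All levels are in FPKM as deposited by the authors, a unit that divides the fragments of a gene by its length and by the size of the library. Each difference is the dormant value less the DMSO value in log2(FPKM + 1), given with its SE, and a gene passed the test at a Benjamini-Hochberg adjusted p under 0.05 in limma over all 14699 genes that reached 1 FPKM in at least 2 libraries. On this scale the change of a low gene is understated. Each SE rests on a spread shared by all 6 groups. Of the 10 Wnt genes, 6 reached that level and were tested, while WNT7A, WNT7B, WNT10A and AXIN2 did not. The sequencing depth is unknown, because counts are not analysed here.

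A pair of the 12 libraries differed from their replicate more than the rest did and are called the libraries that stood apart. In HCC4006, the second dormant library correlated with the first at r = 0.654 across genes, which are not independent replicates, and listed GAPDH at 6.72 FPKM, against at least 3755 FPKM in the others. The second HCC827 DMSO library correlated with its replicate at r = 0.909, while the other 4 pairs reached at least 0.979. The epithelial markers EPCAM, KRT8, KRT18, KRT19 and CDH1 summed to between 483 and 19184 FPKM in the 12 libraries, so RNA of this cell type was found in each, while 5 immune markers summed to at most 1.1 FPKM and 3 endothelial markers to at most 3.05 FPKM. For the genes whose values in these libraries bear on a result, the value without them is given as well.

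In the mean over the 3 lines, 2 of the 6 tested Wnt genes, LGR5 and WNT5A, rose in dormant cells and none fell. Of all genes tested, 15.4% passed in that comparison, 10.9% higher and 4.55% lower. In such bulk libraries, a change in the number of cells of a type and a change in RNA per cell cannot be told apart. WNT5A reached 1 FPKM in the 2 HCC4006 dormant libraries alone, so it entered the test through the group where it is high. In HCC4006, LGR5 and WNT5A rose again and none fell, where 6.07% of all genes passed, 4.88% higher and 1.18% lower. In HCC827, DKK1 rose, the other 5 did not pass and none fell, where 4.5% of all genes passed, 3.06% higher and 1.44% lower. In PC9 none of the 6 passed in limma, where 2.71% of all genes did, 1.82% higher and 0.891% lower, and 0 of the 6 had an unadjusted p under 0.05. In a fit without the 2 libraries that stood apart, the difference of LGR4 in HCC4006 was 1.38, against 3.68 with all libraries. That fit has 1 library of HCC4006 dormant and 1 of HCC827 DMSO cells, each assumed to vary like the other groups. The median difference of the 6 tested genes in the mean over lines was 0.83, against 0.22 for all genes tested, and 0.49 against 0.2 without the libraries that stood apart.

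All 10 genes can be compared by whether the libraries overlapped. The shares given beside the counts cover only genes that passed the filter, which WNT7A, WNT7B, WNT10A and AXIN2 did not. Counts and shares are therefore not over like sets. In HCC4006, both dormant libraries lay above both DMSO libraries for 4 of the 10 genes and below them for 1, as for 30.4% and 15.8% of all genes tested. In HCC827 they lay above for 4 and below for 0, as for 40% and 19.4% of all genes. In PC9 they lay above for 2 and below for 3, as for 35.5% and 27% of all genes.

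**Figure D1:**
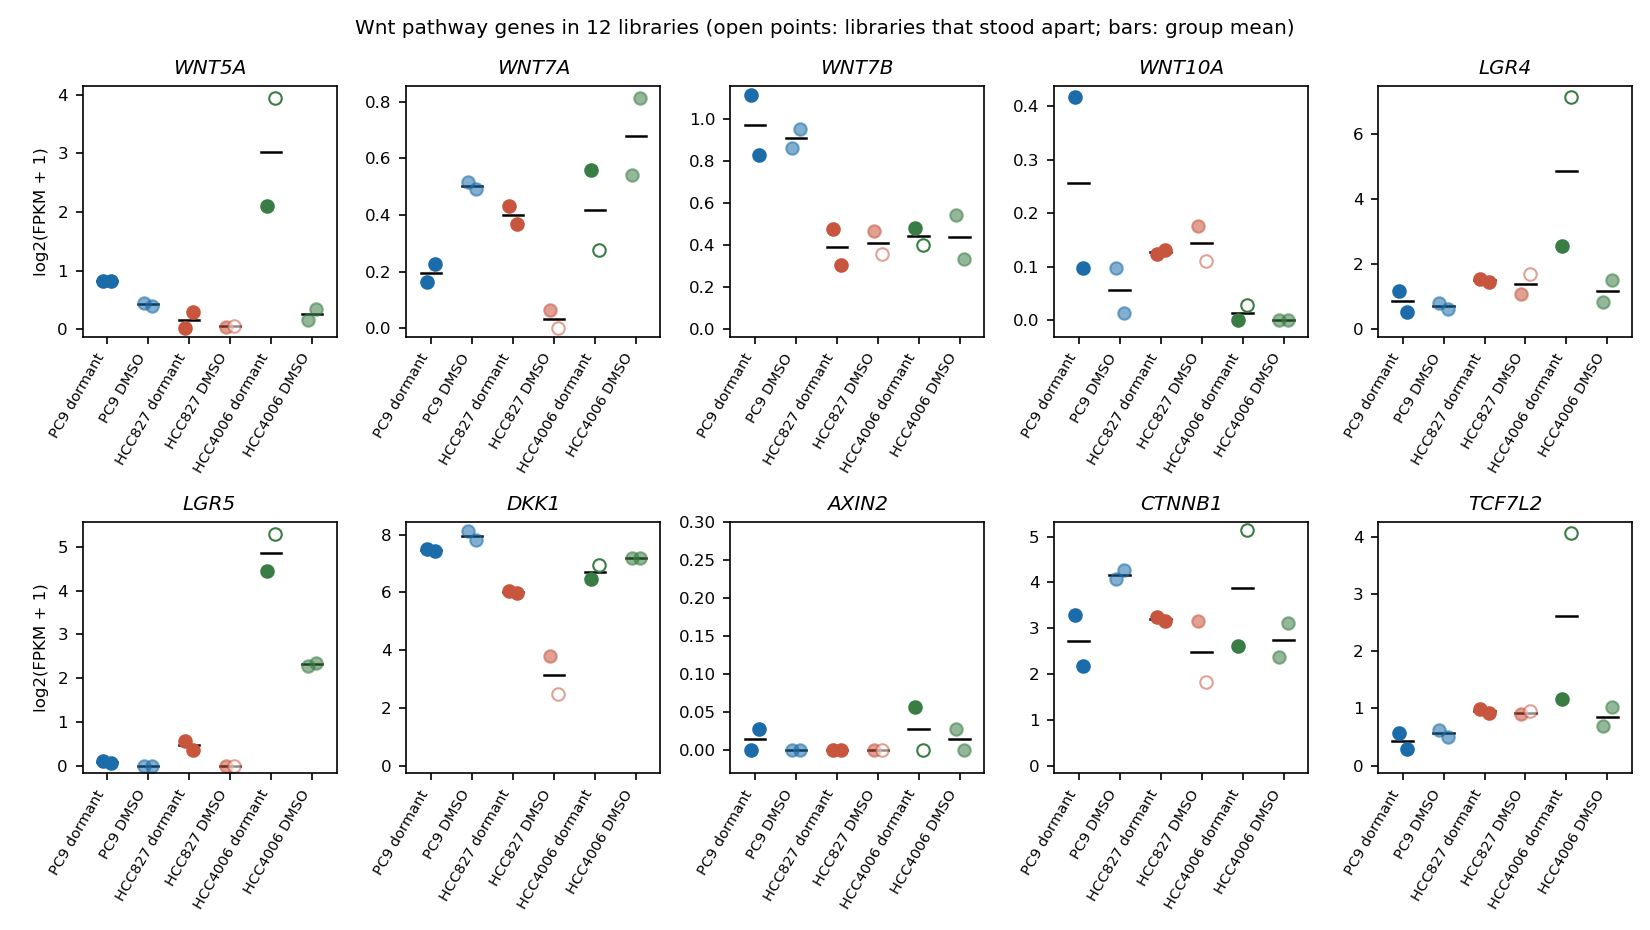
Level of each of the 10 Wnt genes in the 12 libraries, as log2(FPKM + 1) on a separate vertical scale for each gene, with dormant groups left of their DMSO group, bars for the mean of 2 libraries and open points for the libraries that stood apart. LGR5 and WNT5A are high in HCC4006 dormant cells, DKK1 is lowest in HCC827 DMSO cells, and AXIN2 lies near 0 throughout.

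WNT5A, a ligand known mainly for beta-catenin-independent signalling, had the largest difference of the 4 ligands. HCC4006 dormant cells had 3.27 and 14.5 FPKM of WNT5A, against 0.12 and 0.265 FPKM in HCC4006 DMSO cells. Both dormant libraries lay above both DMSO libraries, although they differed from each other several-fold. The ratio of mean FPKM was 46.1, and 17.0 with the first dormant library alone. The log2 difference in HCC4006 was 2.77 ± 0.47 (adjusted p = 0.0106), and 1.84, still passing, without the libraries that stood apart. That call was lost without either HCC4006 DMSO library (adjusted p = 0.124 and 0.0661), and with no filter on low values (adjusted p = 0.052). Since the filter kept WNT5A through these 2 dormant libraries, the test in HCC4006 is not independent of that choice.

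PC9 dormant cells had 0.76 and 0.765 FPKM of WNT5A, against 0.365 and 0.315 FPKM in PC9 DMSO cells. The groups did not overlap, and the difference of 0.40 did not pass (adjusted p = 0.943). HCC827 dormant cells had 0.02 and 0.22 FPKM, against 0.03 and 0.04 FPKM in HCC827 DMSO cells, so the groups overlapped. In the mean over lines the difference was 1.09 ± 0.27 (adjusted p = 0.0256). That call was kept when either HCC4006 dormant library was left out, and it was lost when any 1 of the other 10 libraries was left out, with adjusted p up to 0.0815. In order of mean FPKM, HCC4006 dormant cells came first, then PC9 dormant and PC9 DMSO cells without overlap between neighbours, and then HCC4006 DMSO, HCC827 dormant and HCC827 DMSO cells, each of which overlapped the next. The antisense gene WNT5A-AS1 was listed at no more than 0.035 FPKM in any library.

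The promoter window of WNT5A most upstream in RefSeq (GRCh38.p14, chr3:55487257-55487556, minus strand, from 250 bases before the transcript start to 50 after it) is shown because WNT5A rose in dormant cells. It holds neither the TCF/LEF core TCAAAG nor the TEAD core GGAATG, searched on both strands (CTTTGA and CATTCC in reverse), and a second WNT5A window holds neither. TEAD factors are the DNA-binding partners of YAP, the protein named in the study's title. Of 35116 RefSeq windows of the same length, 12.9% hold the TCF/LEF core and 14.0% the TEAD core.
WNT5A: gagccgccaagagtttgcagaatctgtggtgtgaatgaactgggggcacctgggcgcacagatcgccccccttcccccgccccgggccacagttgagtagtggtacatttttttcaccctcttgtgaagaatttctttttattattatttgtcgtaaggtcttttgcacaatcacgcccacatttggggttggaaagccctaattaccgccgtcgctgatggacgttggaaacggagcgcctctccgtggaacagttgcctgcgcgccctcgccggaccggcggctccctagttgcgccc

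WNT7A, WNT7B and WNT10A, ligands known for canonical signalling, were below 1 FPKM in nearly all libraries. WNT7A had 0.12 and 0.17 FPKM in PC9 dormant cells, against 0.43 and 0.405 FPKM in PC9 DMSO cells. It had 0.35 and 0.29 FPKM in HCC827 dormant cells, against 0.045 and 0 FPKM in HCC827 DMSO cells. The dormant libraries thus lay below the DMSO libraries in PC9 and above them in HCC827. In HCC4006 the groups overlapped, with 0.475 and 0.21 FPKM in dormant cells and 0.455 and 0.76 FPKM in DMSO cells. WNT7B ranged from 0.775 to 1.17 FPKM in PC9 dormant cells and from 0.815 to 0.935 FPKM in PC9 DMSO cells, and lay between 0.235 and 0.455 FPKM in the other 8 libraries. WNT10A was highest in 1 PC9 dormant library, at 0.335 FPKM, and at most 0.13 FPKM in the other 11. When all 40839 genes above 0 in any library were tested, none of the 3 passed in any line or in the mean, where their differences lay between -0.07 and 0.07.

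LGR5, a receptor for R-spondins and a marker of Wnt-dependent stem cells in the gut, passed in the mean and in HCC4006 whichever library was left out. LGR5 was at 20.7 and 38.1 FPKM in HCC4006 dormant cells, against 3.88 and 4.11 FPKM in HCC4006 DMSO cells. All 4 libraries of this line kept to 2 separate levels, and the ratio of mean FPKM was 7.37. The log2 difference was 2.55 ± 0.33 (adjusted p = 0.0031), and it passed with each of the 12 libraries left out in turn. LGR5 thereby stood above 78.8% and 85.3% of tested genes in HCC4006 dormant libraries, against 59.8% and 53.5% in HCC4006 DMSO libraries.

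HCC827 dormant cells had 0.49 and 0.285 FPKM of LGR5, and both HCC827 DMSO libraries listed it at 0. PC9 dormant cells had 0.07 and 0.04 FPKM, and both PC9 DMSO libraries again listed it at 0. In every line the dormant libraries thus lay above the DMSO libraries, in HCC827 and PC9 at levels under 1 FPKM. Neither difference passed, at 0.47 ± 0.33 in HCC827 and 0.08 ± 0.33 in PC9 (adjusted p = 0.513 and 1). With a pseudocount of 0.1 in place of 1, the HCC827 difference was 2.25 and passed (adjusted p = 0.0452). In the mean over lines LGR5 rose by 1.03 ± 0.19 (adjusted p = 0.00692). A test of a difference between the lines gave an adjusted p of 0.0529 for LGR5, and 0.00575 without the libraries that stood apart, and none of the 6 Wnt genes passed it with all libraries, as 1.48% of all genes did. Among DMSO cells LGR5 was higher in HCC4006 than in PC9 by 2.32 and than in HCC827 by 2.32 (adjusted p = 0.00246 and 0.003), in a comparison of DMSO lines where 12% of all genes passed. LGR5 reached 1 FPKM only in the 4 HCC4006 libraries. Neither this comparison nor the test of a difference between the lines is therefore independent of the filter.

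LGR4, the related R-spondin receptor, was high in a single library. LGR4 was at 4.88 and 141 FPKM in HCC4006 dormant cells, against 0.79 and 1.84 FPKM in HCC4006 DMSO cells. The library with 141 FPKM is the one that stood apart. The ratio of mean FPKM was 55.3 with both dormant libraries and 3.7 with the first alone. The log2 difference of 3.68 ± 1.11 did not pass (adjusted p = 0.0757). Without the libraries that stood apart it was 1.38, which rests on the first dormant library alone. PC9 dormant cells had 1.26 and 0.45 FPKM, against 0.745 and 0.535 FPKM in PC9 DMSO cells. HCC827 dormant cells had 1.93 and 1.75 FPKM, against 1.12 and 2.21 FPKM in HCC827 DMSO cells. In both of these lines the groups overlapped. Below HCC4006 dormant cells, the other 5 groups had mean levels from 0.64 to 1.84 FPKM and each overlapped its neighbour in that order.

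DKK1, the secreted blocker of LRP receptors and itself a known target of beta-catenin, had the highest mean FPKM of the 10 genes in each of the 6 groups, although LGR4 exceeded it in the second HCC4006 dormant library. HCC827 dormant cells had 64.7 and 62.4 FPKM of DKK1, against 12.8 and 4.57 FPKM in HCC827 DMSO cells. The groups were well apart, with a ratio of mean FPKM of 7.3. The log2 difference was 2.88 ± 0.52 (adjusted p = 0.0143), and 2.22 without the libraries that stood apart (adjusted p = 0.00037). The call was lost without the first or the second HCC827 dormant library or the second HCC827 DMSO library (adjusted p = 0.145, 0.126 and 0.0667).

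In the other lines the order of the groups was the opposite. PC9 dormant cells had 181 and 173 FPKM of DKK1, against 280.3 and 222 FPKM in PC9 DMSO cells. HCC4006 dormant cells had 88.2 and 122 FPKM, against 145 and 146 FPKM in HCC4006 DMSO cells. Both dormant libraries lay below both DMSO libraries in each of these lines. The differences of -0.49 ± 0.52 in both lines did not pass (adjusted p = 0.908 in PC9 and 0.547 in HCC4006). The test of a difference between lines gave an adjusted p of 0.0709, and 0.00123 without the libraries that stood apart. Among DMSO cells, DKK1 was higher in PC9 than in HCC827 by 4.83 and in HCC4006 than in HCC827 by 4.06 (adjusted p = 0.00044 and 0.00157). HCC4006 and PC9 differed by -0.77 (adjusted p = 0.42). Without the libraries that stood apart, the first 2 differences were 4.18 and 3.41 (adjusted p = 5.48e-06 and 2.8e-05), and that of -0.77 passed (adjusted p = 0.0106). In order of mean FPKM the 6 groups were PC9 DMSO, PC9 dormant, HCC4006 DMSO, HCC4006 dormant, HCC827 dormant and HCC827 DMSO, with no overlap between neighbours.

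The promoter window of DKK1 (RefSeq, GRCh38.p14, chr10:52314031-52314330, plus strand, same limits) is shown because DKK1 had the largest difference between DMSO lines of the 6 tested genes and because it alone, among the 10 windows found for 7 of the 10 genes, held either core. It holds the TCF/LEF core at positions -149 and -95 and the TEAD core at position -50, counted from the transcript start and marked in capitals. Of the 10 windows, 1 thus holds the TCF/LEF core and 1 the TEAD core, beside 12.9% and 14.0% of all windows. Both cores together occur in 2.08% of all windows. This window was picked for its cores, so that share does not measure how unusual it is. A match describes the letters and not a bound site.
DKK1: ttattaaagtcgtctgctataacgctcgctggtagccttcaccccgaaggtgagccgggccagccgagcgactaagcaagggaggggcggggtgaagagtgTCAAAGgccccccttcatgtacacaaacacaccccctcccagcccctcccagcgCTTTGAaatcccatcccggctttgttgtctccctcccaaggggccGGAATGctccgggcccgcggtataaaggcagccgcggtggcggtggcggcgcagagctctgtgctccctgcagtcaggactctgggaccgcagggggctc

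AXIN2, a negative regulator that is induced by beta-catenin with TCF/LEF in most tissues, was close to 0 in every library. It was listed at 0 and 0.02 FPKM in PC9 dormant cells, against 0 in both PC9 DMSO libraries. All 4 HCC827 libraries listed it at 0. HCC4006 dormant cells had 0.04 and 0 FPKM, against 0.02 and 0 FPKM in HCC4006 DMSO cells. AXIN2 was therefore above 0 in 3 of 12 libraries, at up to 0.04 FPKM, and no difference was detectable at this level (adjusted p = 0.671 in the mean over lines in the test without a filter).

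CTNNB1, which encodes beta-catenin, a protein regulated mainly through its stability, lay lower in dormant cells of PC9 and higher in those of HCC827, without passing the test in either line. PC9 dormant cells had 8.77 and 3.51 FPKM of CTNNB1, against 15.8 and 18.2 FPKM in PC9 DMSO cells. All PC9 dormant values were lower, and the ratio of mean FPKM was 0.361. The difference of -1.44 ± 0.80 did not pass (adjusted p = 0.572), and it passed without the 2 libraries that stood apart, neither of them from PC9 (adjusted p = 0.0257). HCC827 dormant cells had 8.46 and 7.96 FPKM, against 7.88 and 2.56 FPKM in HCC827 DMSO cells. These groups did not overlap, though the first DMSO library was close to the dormant ones. HCC4006 dormant cells had 5.08 and 34.3 FPKM, against 4.21 and 7.61 FPKM in HCC4006 DMSO cells, so the groups overlapped. The mean over lines was 0.14 ± 0.46 (adjusted p = 0.863), and -0.51 without the libraries that stood apart. It was also negative under median of ratios scaling (-0.14) and quantile normalization (-0.19), which brought the median difference of all genes to 0.03 from the 0.22 of the deposited scale.

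TCF7L2, the TCF/LEF factor of the set, was near or below 1 FPKM in 11 libraries. TCF7L2 was at 1.25 and 15.7 FPKM in HCC4006 dormant cells, against 0.62 and 1.03 FPKM in HCC4006 DMSO cells. Again the high value came from the library that stood apart, and the ratio of mean FPKM was 10.3 with both dormant libraries and 1.51 with the first alone. The difference of 1.75 ± 0.70 did not pass (adjusted p = 0.135), nor did that of 0.31 without the libraries that stood apart (adjusted p = 0.367). PC9 dormant cells had 0.485 and 0.23 FPKM, against 0.545 and 0.415 FPKM in PC9 DMSO cells. HCC827 dormant cells had 0.98 and 0.89 FPKM, against 0.87 and 0.93 FPKM in HCC827 DMSO cells. The groups overlapped in both lines, and in the mean over lines TCF7L2 differed by 0.55 ± 0.41 (adjusted p = 0.373).

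**Figure D2:**
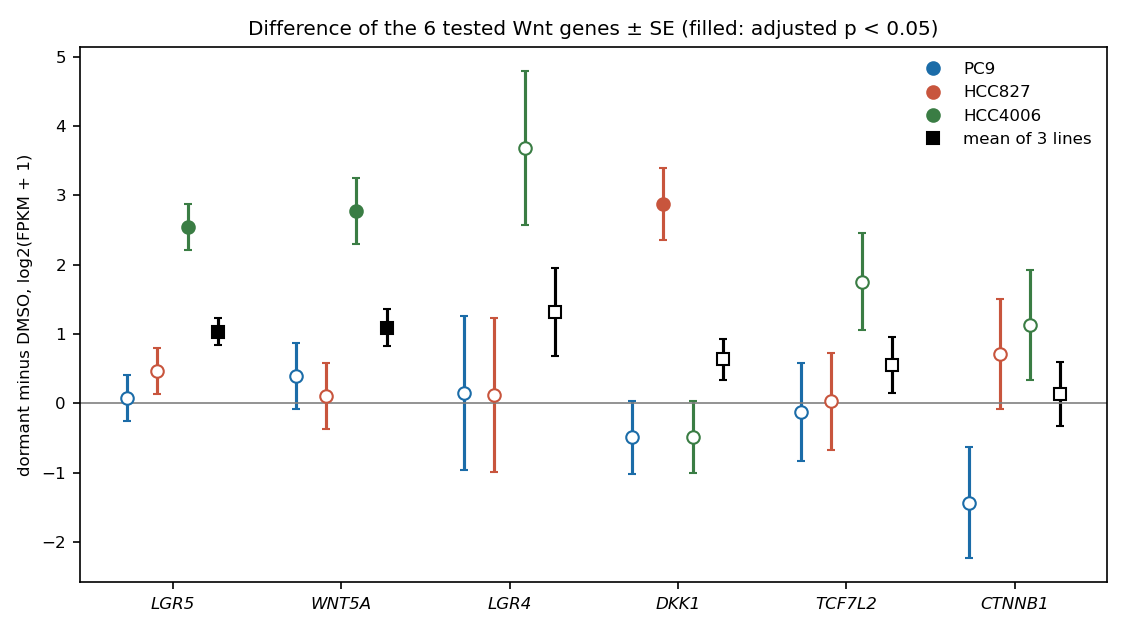
Dormant minus DMSO difference of the 6 tested Wnt genes in log2(FPKM + 1), with SE, for PC9, HCC827, HCC4006 and the mean of the 3 lines, filled where the adjusted p was under 0.05. LGR5 (2.55) and WNT5A (2.77) are filled in HCC4006 and in the mean, and DKK1 (2.88) is filled in HCC827 alone.

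The 2 dormant libraries of HCC4006 gave different sizes for most of these genes. The second minus the first was 4.59 for LGR4 on the log2 scale, 2.89 for TCF7L2, 2.54 for CTNNB1, 1.86 for WNT5A, 0.85 for LGR5 and 0.46 for DKK1. All 6 tested Wnt genes were thus higher in the second library, as were 41.2% of all genes tested, whose median difference was -0.3. For LGR4, 0.81% of all genes differed more in that direction, and for LGR5 26.3% did.

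**Figure D3:**
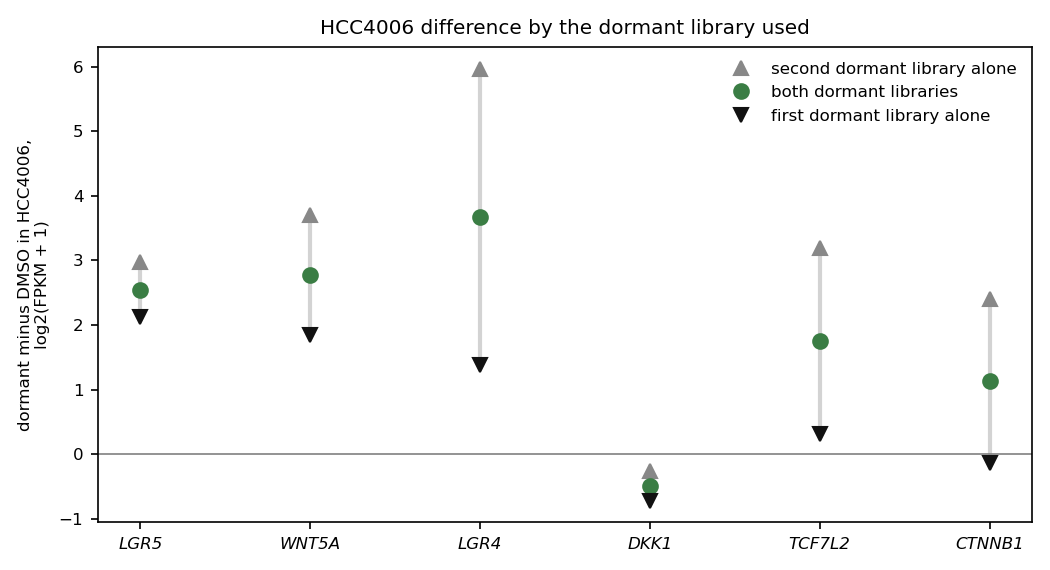
Dormant minus DMSO difference in HCC4006 in log2(FPKM + 1) for the 6 tested Wnt genes, taken against the mean of both DMSO libraries with the second dormant library alone, with both, or with the first alone. LGR5 and WNT5A are above 0 with either library, at 2.12 and 1.84 with the first alone, whereas CTNNB1 is at -0.14 with the first alone.

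Some markers of cell types also differed in HCC4006. Of 5 fibroblast markers, 2 were tested, COL1A1 and COL1A2, and both rose in HCC4006, where the 5 summed to 376 and 263 FPKM in dormant libraries, against 1.86 and 1.69 FPKM in DMSO libraries. COL1A2, a collagen chain, made up 368 and 249.6 FPKM of the dormant sums, and COL3A1 was listed at 0 in all 4 HCC4006 libraries. PDGFRA and PDGFRB, receptors also among the 5 fibroblast markers, reached at most 0.675 and 1.12 FPKM in HCC4006 dormant cells. The 5 epithelial markers summed to 1836 and 483 FPKM in HCC4006 dormant cells, against 5207 and 5383 FPKM in HCC4006 DMSO cells, and 0 of the 5 passed the test there. KRT8, KRT18, KRT19 and CDH1 differed by -3.70, -4.23, -5.30 and -0.62 in HCC4006, whereas EPCAM differed by 0.34. These sizes depend on the second dormant library, which stood apart and listed KRT8 at 5.87 FPKM, against 685.7 FPKM in the first. In that order of genes, the ratios of mean FPKM were 0.388, 0.167, 0.075, 0.637 and 1.33. With the first dormant library alone they were 0.77, 0.326, 0.146, 0.85 and 0.87. EPCAM was at 208.8 and 428.8 FPKM in HCC4006 dormant cells, against 194.1 and 286.2 FPKM in HCC4006 DMSO cells, so these groups overlapped. In PC9 and HCC827 the fibroblast markers summed to at most 3.21 FPKM. COL1A1 lay higher in HCC827 dormant than DMSO cells by 1.37 ± 0.35, without passing (adjusted p = 0.0611). The part of these changes in the rise of LGR5 and WNT5A was not tested.

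The wider pathway was described with 8 lists of 95 genes in all, of which 37 were tested. The 37 include the 6 tested members, so the calls of LGR5, WNT5A and DKK1 are counted again here. In the mean over lines 8 rose and 1 fell, which is 24.3% of the 37 beside the 15.4% of all genes, and their median difference was 0.55. No gene of the lists passed in PC9, as 2.71% of all genes did, and 5 had an unadjusted p under 0.05 there. In HCC827, 2 rose and none fell, beside 4.5% of all genes called. In HCC4006, 5 rose and 1 fell, beside 6.07% of all genes called. These counts hold WNT5A, SFRP4 and TLE4, which reached 1 FPKM only in HCC4006 dormant libraries, and FZD2, which did so only in 2 dormant libraries, so that the filter itself kept them for being high there. AXIN1, APC and DVL2, not called but among the 37, also reached 1 FPKM in dormant libraries only, in 4, 4 and 2 of them. TNFRSF19 and DVL3, both called, reached it in 6 and 5 dormant libraries and in 1 DMSO library each. The filter thus bears on the median as well. Without the libraries that stood apart, 17 rose and 3 fell in the mean over lines, where 42.9% of all genes passed, with a median of 0.34 beside 0.2 for all genes.

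Of 19 Wnt ligands only WNT5A and WNT5B were tested, and WNT5A alone passed. WNT5B was at 3.515 and 0.02 FPKM in HCC4006 dormant cells, against 0.38 and 0.5 FPKM in HCC4006 DMSO cells. Its difference of 0.58 ± 0.55 there did not pass (adjusted p = 0.497). Without the libraries that stood apart it was 1.65, which rests on the first dormant library, as the second lay below both DMSO libraries. In the mean over lines WNT5B differed by 0.54 with all libraries and by 0.93 without those that stood apart. Both genes of Wnt secretion were tested, and WLS, the carrier that takes Wnt proteins to the cell surface, rose. WLS was at 15.7 and 17.2 FPKM in HCC827 dormant cells, against 3.02 and 1.39 FPKM in HCC827 DMSO cells, a difference of 2.49 ± 0.41 (adjusted p = 0.00931). It was at 26.1 and 31.2 FPKM in HCC4006 dormant cells, against 9.07 and 11.2 FPKM in HCC4006 DMSO cells. It was at 4.82 and 4.75 FPKM in PC9 dormant cells, against 1.93 and 1.25 FPKM in PC9 DMSO cells. The dormant libraries lay above the DMSO libraries in all 3 lines, and the mean difference of 1.69 ± 0.24 (adjusted p = 0.00185) passed with each of the 12 libraries left out.

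Of 15 receptor genes 7 were tested and FZD2, a Frizzled receptor, rose in the mean by 0.54 ± 0.16 (adjusted p = 0.0497), a call that was kept with only 2 of the 12 libraries left out in turn. Of 9 genes of the R-spondin axis, LGR4 and LGR5 were the ones tested. Of 14 secreted antagonists 3 were tested, and SFRP4, a secreted protein that binds Wnt ligands, was called higher. SFRP4 was at 7.14 and 2.51 FPKM in HCC4006 dormant cells and was listed at 0 in the other 10 libraries. Its difference in HCC4006 was 2.42 ± 0.32 (adjusted p = 0.00323) and passed with each library left out, while in the mean over lines, at 0.81 ± 0.18 (adjusted p = 0.0176), it was kept with 4 of the 12 left out in turn. It entered the test through those 2 libraries alone, so these calls are no evidence apart from the filter.

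Of 12 genes of the destruction complex and its regulators 7 were tested, and DVL3, a Dishevelled protein that relays the receptor signal, rose by 0.72 ± 0.18 in the mean (adjusted p = 0.0247), kept with 4 of 12 libraries left out in turn. Of 14 nuclear genes 9 were tested. TLE1, a co-repressor of TCF/LEF factors, rose by 1.35 ± 0.39 in the mean (adjusted p = 0.0423), and its relative TLE4 rose by 2.29 ± 0.56 in HCC4006 (adjusted p = 0.0422). Each of these calls was kept with 2 of 12 libraries left out in turn. TLE4 was at 1.95 and 13.2 FPKM in HCC4006 dormant cells, against 0.135 and 0.545 FPKM in HCC4006 DMSO cells. It too entered the test through the 2 HCC4006 dormant libraries alone. Without the libraries that stood apart, TLE1 differed by 0.90 in the mean and TLE4 by 1.15 in HCC4006.

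Of 18 known Wnt target genes 7 were tested, and in the mean over lines 2 rose and 1 fell, which is 42.9% of the 7 beside the 15.4% of all genes. LGR5 was one of those that rose. TNFRSF19, a receptor of the TNF family and a target of beta-catenin, rose by 1.36 ± 0.24 (adjusted p = 0.00519). It was at 1.41 and 1.26 FPKM in PC9 dormant cells, against 0.12 and 0.175 FPKM in PC9 DMSO cells. It was at 3.21 and 2.41 FPKM in HCC827 dormant cells, against 0.505 and 0.04 FPKM in HCC827 DMSO cells. In HCC4006 dormant cells it was at 6.9 and 2.43 FPKM, against 0.595 and 1.23 FPKM in HCC4006 DMSO cells. CCND1, which encodes cyclin D1 and is also induced by ERK signalling, fell by 2.41 on the log2 scale in the mean (adjusted p = 0.00297). CCND1 was at 10.3 and 6.79 FPKM in HCC4006 dormant cells, against 88.1 and 100.2 FPKM in HCC4006 DMSO cells. Both calls in the mean passed with each library left out. CD44 and MYC did not pass in the mean, at -0.89 ± 0.28 and -0.32 ± 0.29 (adjusted p = 0.0602 and 0.467). Both dormant libraries lay below both DMSO libraries for CD44 in all 3 lines, and for MYC in PC9 and HCC4006. BAMBI, a decoy receptor of the TGF-beta family, rose in HCC4006 by 2.44 ± 0.60 (adjusted p = 0.0425), with 1.93 and 12.9 FPKM in dormant cells, against 0.05 and 0.315 FPKM in DMSO cells. That call was kept with 2 of 12 libraries left out in turn, and without the libraries that stood apart the difference was 1.32 (adjusted p = 0.00508). The other 11 target genes, among them AXIN2, did not exceed 3.68 FPKM in any library.

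**Figure D4:**
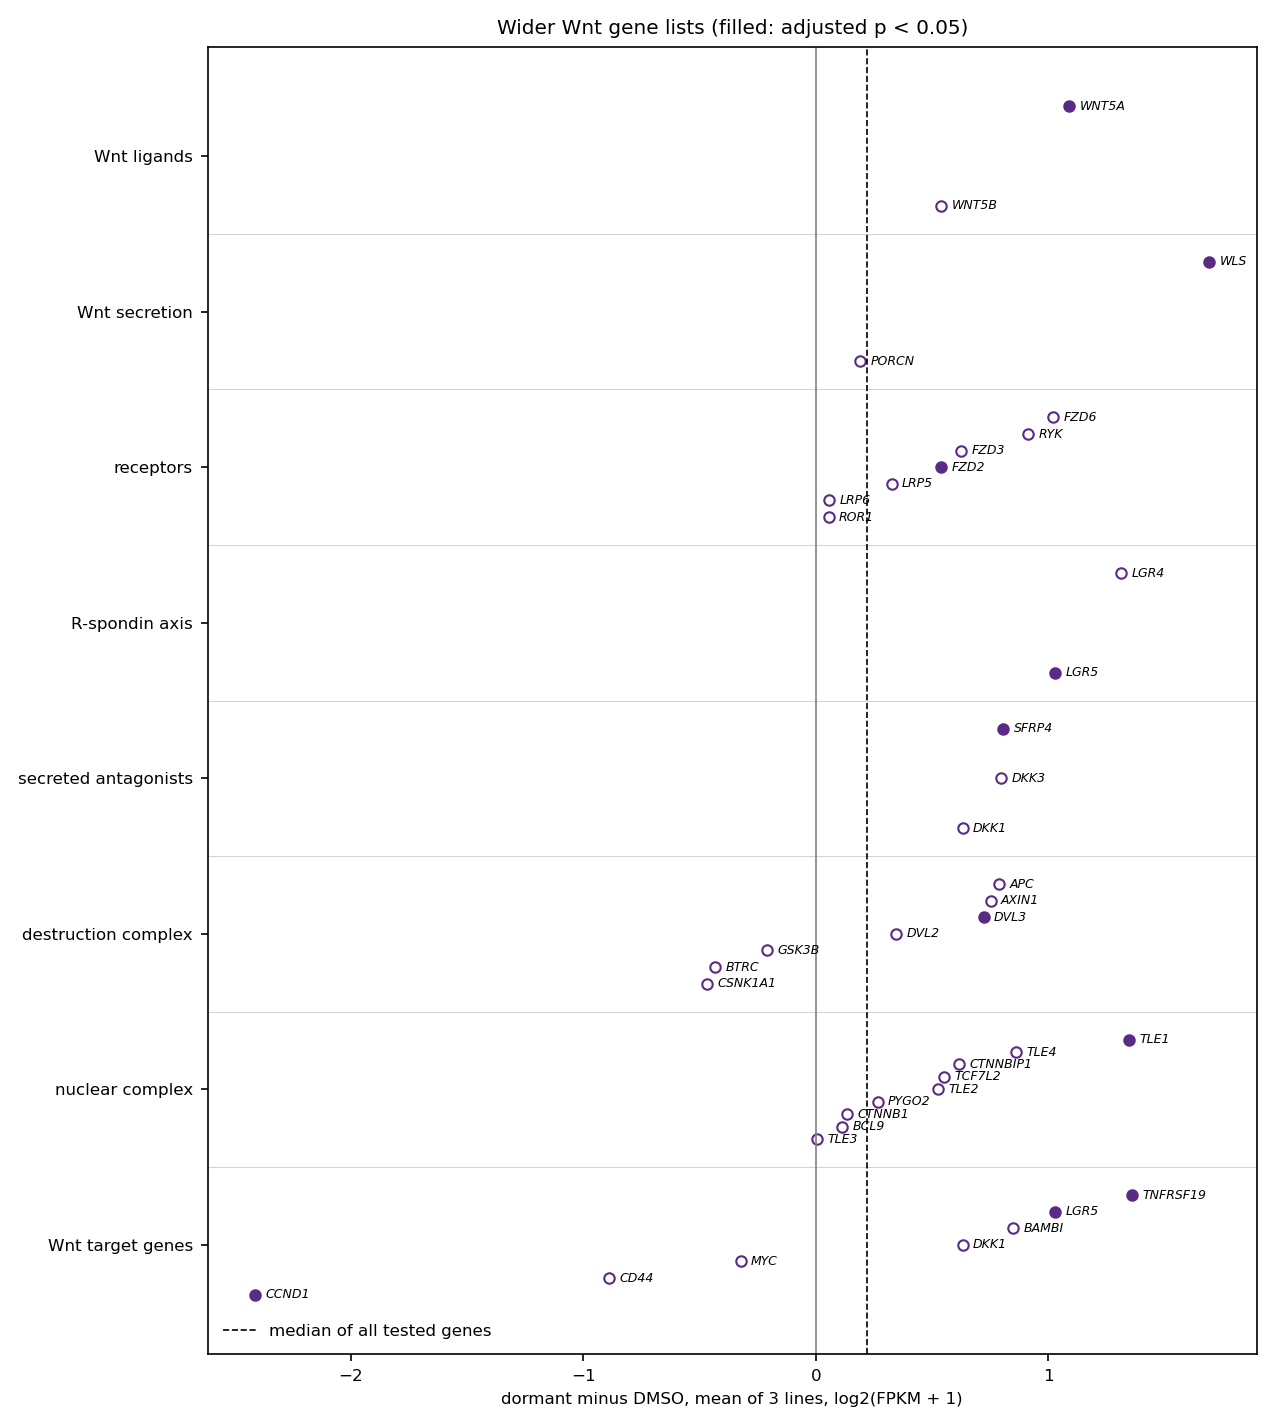
Dormant minus DMSO difference in the mean of 3 lines, in log2(FPKM + 1), for the 37 tested genes of the 8 Wnt lists, filled where the adjusted p was under 0.05, with a dashed line at the median of all genes tested (0.22). LGR5 and DKK1 stand in 2 lists each. WLS (1.69), TNFRSF19 (1.36) and TLE1 (1.35) lie furthest to the right and CCND1 (-2.41) furthest to the left.

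The genes with the most similar pattern over the 12 libraries were found by the root mean square distance between profiles of log2(FPKM + 1), each centred on its own mean, for the 3 Wnt genes with the widest range of group means. The range was 4.87 for LGR5, 4.83 for DKK1 and 4.14 for LGR4. The nearest genes to LGR5 were ELOVL4 (0.31), CDH6 (0.34) and SPOCK3 (0.38), and without the libraries that stood apart LXN (0.19), PPP2R2B (0.21) and MOXD1 (0.24). The nearest to DKK1 were LITAF (0.55), BMP4 (0.58) and WFDC2 (0.64), and LITAF and BMP4 were again among the nearest 3 over the 10 remaining libraries. The nearest to LGR4 were GCH1 (0.21), FMR1 (0.23) and NSD3 (0.24), of which none was among the nearest 3 over the 10 remaining libraries.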

How the data were processed

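The authors deposited 1 table of FPKM values, rounded to 0.01, with 24 value columns, 2 per library. The column names end in R1 and R2, and what each column holds is not given in the sources used here. They were averaged and counted as 1 library. Per the labels' protocols, libraries were made with a stranded mRNA kit from TRIzol-extracted RNA. The submitters' processing notes name DESeq2 1.10.1, Cufflinks 2.2.1 and STAR 2.5.1b without a role, and hg19 and GRCh37 as builds. Whether counting used strand is not given there. No gene positions are printed, since the annotation at hand is on a later build.

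Genes at 1 FPKM or more in at least 2 of 12 libraries were kept (14699). Values of log2(FPKM + 1) were fitted in R 4.3.3 by limma 3.58.1 (lmFit, eBayes with a trend), 1 coefficient per group, with 6 residual and 3.8 prior degrees of freedom. Contrasts were dormant minus DMSO in each line, their mean, an F test between lines and an F test among DMSO lines, two-sided, adjusted by Benjamini-Hochberg. The procedure was tested on simulated data, where it missed most of the planted changes in single lines and many in the mean, so a gene that missed the threshold is not shown to be unchanged.

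The members, the 8 gene lists and the tests were chosen with earlier results of these data known. Named were all members, up to 4 genes per list with the largest absolute mean difference among those called, genes called in a line whose groups did not overlap, and the 3 genes nearest to each of the 3 members with the widest range. Alternatives were another pseudocount, other filters, other scalings, a replicate block, the first column alone and leaving out libraries. Leaving out both libraries that stood apart was added after the data were seen. Promoters were matched by symbol to RefSeq windows (7 of 10 members) with Python 3.11.15.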

Additional observations from a re-analysis of the deposited data

Results flagged for a closer look

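In 3 of the 10 members, both dormant libraries lay above both DMSO libraries in 1 line and below them in another. The test of a difference between lines did not pass for any of the 3. In PC9, HCC827 and HCC4006, 35.5%, 40% and 30.4% of all genes tested lay above, and 27%, 19.4% and 15.8% below. The share of all genes with opposed lines was not computed, so the 3 are not shown to be unusual. LRP6, PORCN, BTRC and BCL9 of the wider lists were also opposed between lines. DKK1 was higher in HCC827 dormant cells and lower in PC9 and HCC4006 dormant cells than in DMSO cells of the line (adjusted p = 0.0709 between lines). CTNNB1 was higher in HCC827 dormant cells and lower in PC9 dormant cells (adjusted p = 0.457). WNT7A was higher in HCC827 dormant cells and lower in PC9 dormant cells, at levels under 0.5 FPKM in both lines (adjusted p = 0.668 in the test without a filter on low values). SFRP4 was the gene of the wider lists whose difference varied between lines (adjusted p = 0.0368), with values above 0 in HCC4006 dormant cells only. It passed the filter on low values through those libraries alone, so this test is not independent of the filter. Of all genes tested, 1.48% passed that test.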

How the results depend on the processing

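Each result was recomputed under 7 planned settings, with each of the 12 libraries left out in turn, and without both libraries that stood apart. The calls of LGR5 in the mean and in HCC4006 were kept under every setting that tested it. Requiring 1 FPKM in 6 libraries removed LGR5 and WNT5A from the test, leaving 0 members called in the mean and 0 in HCC4006, 1 in the DMSO lines, 5 and 2 wider Wnt genes in the mean and in HCC4006, and 1497, 152, 348, 12 and 1011 of all genes called in the mean, PC9, HCC4006, between lines and among DMSO lines. With no filter, 1 member was called in the mean and 1 in HCC4006, with 4 and 3 wider genes and 1498 and 446 of all genes. A pseudocount of 0.1 gave 2 members and 5 wider genes in HCC827, and 246, 574 and 60 of all genes in PC9, HCC4006 and between lines. Median of ratios scaling gave 4 wider genes in HCC827 and 616 of all genes in PC9, and quantile normalization 5 and 678, with 1 member called between lines and 2670 genes among DMSO lines. These scalings lowered the share of higher calls in the mean to 49.2% and 49%, against 70.5%. Without both libraries that stood apart, wider genes called numbered 20, 8, 8 and 12 in the mean, PC9, HCC827 and HCC4006 and all genes 6299, 3191, 2599 and 2734, with 1 member in PC9, 3 members and 1311 genes between lines, and 7116 genes among DMSO lines.

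With a library left out, members called numbered 1 to 5 in the mean, 0 to 0 in PC9, 0 to 1 in HCC827, 1 to 5 in HCC4006, 0 to 6 between lines and 2 to 3 among DMSO lines. Wider genes called ranged from 4 to 26, 0 to 3, 0 to 11 and 2 to 28 in the mean, PC9, HCC827 and HCC4006, and all genes from 1025 to 7390, 95 to 1638, 84 to 2974 and 128 to 8607, with 65 to 8050 between lines and 685 to 6341 among DMSO lines. The highest counts mostly came without the first or second HCC4006 dormant library. The difference between the 2 libraries of a group correlated above 0.1 in 4 of 15 pairs of groups and below 0 in 6. The replicate numbers thus showed no pairing common to all groups. The highest value, r = 0.471, was between HCC827 DMSO and HCC4006 dormant cells, the groups of the libraries that stood apart. Its cause was not tested. A replicate block changed no member's call but gave 125 genes between lines.

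No called difference changed sign. Uncalled ones did: CTNNB1 in the mean was -0.14 and -0.19 under median of ratios and quantile scaling, -0.51 without both libraries that stood apart, and -0.29 to 0.56 with 1 library left out, with negative values (-0.05, -0.09 and -0.29) without the first PC9 dormant, second HCC827 DMSO or second HCC4006 dormant library. In HCC4006 it was -0.14 in both settings that omit the second dormant library, and -0.14 to 2.4 with 1 left out. TCF7L2 in HCC827 was -0.18 and -0.26 under the scalings and -0.01 to 0.06 with 1 library left out, and in PC9 -0.27 to 0.01. LGR4 in HCC827 was -0.16 and -0.21 under the scalings and -0.18 to 0.42 with 1 left out, and in PC9 -0.17 to 0.47. WNT5A in HCC827 was -0.02 to 0.24 with 1 left out. In single lines, the sign changed only when a library of that line was left out or under the scalings. The causes were not tested. The unknown depth limits what can be said of the genes near 0.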

Other observations

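Several genes of the wider lists were below the filter because a single library was high. FZD7, a Frizzled receptor, was at 0.835 and 12.9 FPKM in HCC4006 dormant cells, against 0.075 and 0.035 FPKM in HCC4006 DMSO cells. SP5, a transcription factor that is a direct target of beta-catenin, was at 0.19 and 2.91 FPKM in HCC4006 dormant cells, against 0.01 and 0.02 FPKM in HCC4006 DMSO cells. TCF7L1, a TCF/LEF factor, was at 0.585 and 2.01 FPKM in HCC4006 dormant cells, against 0.02 and 0.07 FPKM in HCC4006 DMSO cells. These 3 genes were chosen after their values were seen. In each, both dormant libraries were above both DMSO libraries, as for 30.4% of all genes tested in HCC4006. The higher value came from the library that stood apart. Other genes below the filter went the other way, among them DKK2, WNT9A and WNT10B, whose HCC4006 dormant libraries both lay below both DMSO libraries. LRP6, the co-receptor that DKK1 blocks, was at 13 and 7.29 FPKM in HCC827 dormant cells, against 2.65 and 2.92 FPKM in HCC827 DMSO cells, and at 1.43 and 0.435 FPKM in PC9 dormant cells, against 5.19 and 6.11 FPKM in PC9 DMSO cells. It was also chosen after its values were seen, and neither difference passed with all libraries (adjusted p = 0.205 in HCC827 and 0.185 in PC9). Without the libraries that stood apart, both did, at 1.56 in HCC827 and -1.83 in PC9 (adjusted p = 0.0477 and 0.00898).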
